A study of Homo sapiens with 32 samples.

Results

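The genes described here are AREG, which encodes amphiregulin, and 9 other genes of the epidermal growth factor (EGF) family. They comprise the ligands AREG, EREG, HBEGF, TGFA, BTC and NRG1, the receptors EGFR, ERBB2 and ERBB3, and ADAM17. They were taken by symbol from a table of 60107 genes, and all 10 were found. The family was chosen by a measured value, the higher counts of AREG in U2OS cells after camptothecin (CPT), so the members' values in that comparison are given as a description, without p-values.

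EGF-family ligands are made as membrane-bound precursors, and proteases such as ADAM17 cut them from the cell surface. Released ligands bind receptor tyrosine kinases, which pair up and signal through RAS and ERK and through PI3K. ERK signalling in turn raises transcripts of its own inhibitors, and several of the ligand genes are themselves responsive to such signalling and to stress.

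The study used 3′ mRNA sequencing (QuantSeq) of human HEK293T and U2OS cells to follow transcripts after DNA topoisomerase 1 poisoning by CPT and after loss of ATM, a kinase of the DNA damage response. HEK293T is an embryonic kidney line that carries SV40 large T antigen, a viral protein that binds p53, and U2OS is an osteosarcoma line. The labels give 4 libraries each for U2OS CPT, U2OS DMSO, U2OS ATM KO, U2OS WT, HEK293T CPT and HEK293T ATM KO, and 8 for HEK293T DMSO. Libraries are named here by the number in their title, and the study describes its repeats as independent. Cells given CPT or its solvent DMSO were treated for 24 h and recovered for 48 h, and untreated U2OS WT and ATM KO cells were grown for 72 h. The libraries labelled HEK293T ATM KO also carry 24 h of treatment and 48 h of recovery. The U2OS ATM KO cells were picked CRISPR/Cas9 clones. The study's methods speak of an ATM inhibitor for the HEK293T libraries that carry the label ATM KO, and give different CPT doses for the cell lines, so the lines are not compared in their response to CPT.

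Counts on genes ranged from 1232674 to 6362433 per library. Levels are given as CPM, the counts of a gene scaled to 1000000 counts on genes, on which 3 counts correspond to between 0.472 and 2.43 CPM. Each transcript yields a fragment near its 3′ end, so CPM does not grow with transcript length. How fully the fragments of each gene were counted was not examined, so levels of different genes compare only roughly. All 9 genes of a U2OS marker list and 4 of 8 HEK293T markers separated libraries 10 to 25 from the other 16 in the direction of the list. A further 2 HEK293T markers, BEX1 (0.617 to 11.6 against 43.8 to 162 CPM) and CDH2 (105 to 222 against 328 to 753 CPM), separated them in the other direction. ZIC2, a neural transcription factor expressed in HEK293T cells, was at 109 to 190 CPM in libraries 10 to 25 and at most 1.25 CPM elsewhere. Libraries 18 to 33 therefore had the profile of their labelled line. Libraries 1 to 8 had a U2OS profile although 7 of them are labelled HEK293T, and libraries 10 to 17 had a HEK293T profile although 7 of them are labelled U2OS. In what follows these libraries are named by their labels, only those with 1 profile are compared with each other, and no direction is drawn from them for CPT or for ATM.

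Before the ligands, the gene targeted in the ATM KO cells was examined. ATM was at 39.8, 39.5, 32 and 28.8 CPM in the libraries labelled U2OS ATM KO and at 26.6, 21.2 and 34.2 CPM in those labelled U2OS WT with the same HEK293T profile. With the U2OS profile, it was at 34.2 to 61.7 CPM under the label HEK293T CPT and 53.4 to 68.4 CPM under HEK293T DMSO. In the libraries labelled HEK293T ATM KO it was at 54.5 to 74.1 CPM, against 57.8 to 82 CPM in HEK293T DMSO libraries 22 to 25. The groups overlapped, and where the 3′ fragments lie relative to the edit is not given in the sources used here, so this level checks nothing about the edit. CDKN1A and MDM2, targets of p53, were at 401 ± 21.8 and 470 ± 13.3 CPM (SD, n = 4) in U2OS CPT and at 95.9 ± 6.30 and 132 ± 8.62 CPM (SD, n = 4) in U2OS DMSO.

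AREG lies on chromosome 4 (GENCODE 29, GRCh38, chr4:74445134-74455009, plus strand) in a row of 4 ligand genes. EPGN is followed after 49.8 kb by EREG (chr4:74365143-74388751, plus strand), EREG after 56.4 kb by AREG, and AREG after 290.0 kb by BTC (chr4:74744759-74794686, minus strand). The genome build the counts were made on is not given in the sources used here, and these positions serve only to place the genes. Sequences upstream of the start of AREG, its neighbour EREG and HBEGF (chr5:140332843-140346631, minus strand) are shown because AREG and HBEGF were the higher of the EGFR ligands after CPT in U2OS cells while EREG stayed near the limit of counting. They are RefSeq sequence of GRCh38.p14, printed 5′ to 3′ on the strand of the gene, up to the first base that GENCODE 29 places in the gene. Capitals mark matches on either strand to TATAAA, to TGACGTCA (the cAMP response element) and to GGGCGG (the GC box, CCGCCC on the reverse strand).
AREG, chr4:74444886-74445133, plus strand: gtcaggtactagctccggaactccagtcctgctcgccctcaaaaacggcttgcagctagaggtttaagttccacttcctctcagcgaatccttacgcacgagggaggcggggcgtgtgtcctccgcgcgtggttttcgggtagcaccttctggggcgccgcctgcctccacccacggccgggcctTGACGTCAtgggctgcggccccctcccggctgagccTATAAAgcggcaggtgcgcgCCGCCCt
EREG, chr4:74364895-74365142, plus strand: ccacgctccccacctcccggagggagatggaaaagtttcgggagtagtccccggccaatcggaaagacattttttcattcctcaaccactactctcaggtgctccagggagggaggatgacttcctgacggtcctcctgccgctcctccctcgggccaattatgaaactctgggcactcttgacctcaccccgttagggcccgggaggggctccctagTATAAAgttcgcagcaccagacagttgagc
HBEGF, chr5:140346632-140346853, minus strand: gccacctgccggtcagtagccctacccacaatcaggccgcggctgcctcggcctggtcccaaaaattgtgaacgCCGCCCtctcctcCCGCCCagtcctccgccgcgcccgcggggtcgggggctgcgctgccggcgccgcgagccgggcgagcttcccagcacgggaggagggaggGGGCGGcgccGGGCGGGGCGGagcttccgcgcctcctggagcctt
In AREG, TGACGTCA began at position -65 from the RefSeq start, TATAAA at -29 and a GC box at -9. EREG had TATAAA at -32 and none of the other letters searched. HBEGF had 5 GC boxes, the last pair of which overlap, and neither TATAAA nor TGACGTCA. Over 35116 RefSeq windows of 250 bases, 10.7% held TATAAA, 1.65% TGACGTCA, 42.6% GGGCGG, 6.57% TGANTCA (the AP-1 site) and 5.57% a p53 half-site. The GC content of the 250 bases was 65.2% for AREG, 58.0% for EREG and 76.4% for HBEGF, against a median of 58.0%. Windows of 8 of the 10 members were searched, and the first windows of these 8 held no p53 half-site. No window of NRG1 or ERBB3 was used, so whether theirs hold such a site was not tested. These matches are letters in a window and show no binding.

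CPT in U2OS cells was compared with DMSO to ask which transcripts accompanied recovery from topoisomerase 1 poisoning. AREG, NRG1 and HBEGF, ligands that engage EGFR, ERBB3/ERBB4 and EGFR/ERBB4 respectively, were higher in every CPT library than in any DMSO library. EGFR itself was also higher, and ERBB3, a receptor with an impaired kinase that signals through its partners, was lower. EREG, BTC, ERBB2 and ADAM17 overlapped between the groups.

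**Figure D1:**
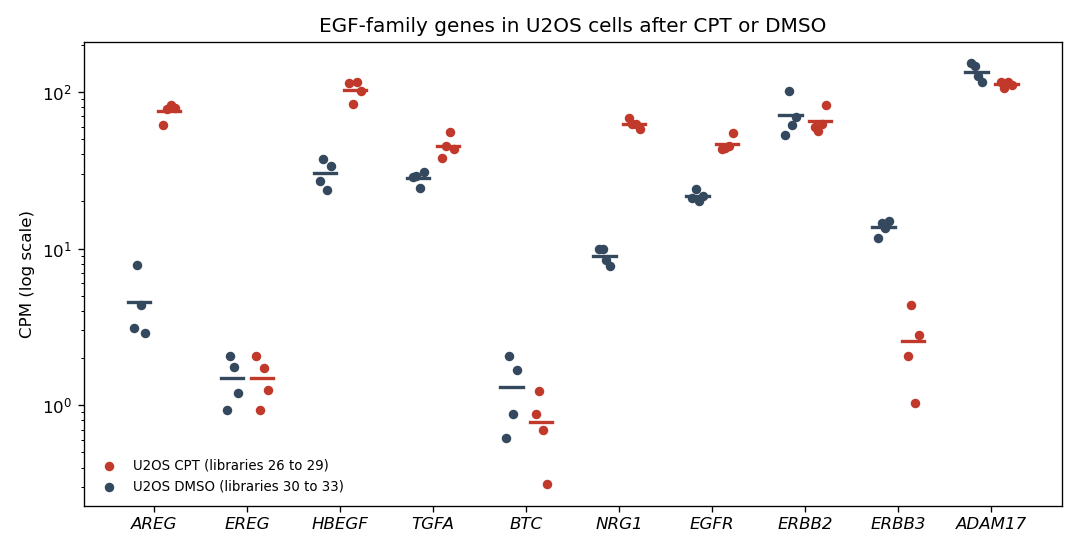
CPM on a log scale of the 10 genes in U2OS CPT libraries 26 to 29 (red) and U2OS DMSO libraries 30 to 33 (dark blue); points are libraries and bars are means. AREG, HBEGF, TGFA, NRG1 and EGFR lie higher with CPT without overlap, ERBB3 lies lower, and EREG and BTC stay at or below 2.06 CPM in every library shown.

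AREG was at 61.5, 78.2, 82.4 and 78.9 CPM in the CPT libraries and at 3.09, 7.91, 4.39 and 2.88 CPM in the DMSO libraries. Every CPT library stood far above every DMSO library. The lowest CPT library rested on 209 counts and the highest DMSO library on 23. The log2 fold change was 4.25 (standard error 0.20), or 19-fold. Such counts of bulk RNA do not tell a higher level in every cell from a larger share of cells that express the gene. Leaving out each library in turn gave 4.08 to 4.58. EREG, which encodes epiregulin, an EGFR and ERBB4 ligand, stayed near the limit of counting in both groups. It had 7, 3, 5 and 4 counts with CPT and 3, 6, 6 and 5 with DMSO, a log2 fold change of 0.19 (95% interval -0.77 to 1.16). BTC, the gene of betacellulin at the other side of AREG, had 3, 4, 2 and 1 counts with CPT and 2, 6, 3 and 7 with DMSO (log2 fold change -0.55, interval -1.76 to 0.66). At these counts the intervals of both genes span changes in either direction, and no difference was detectable at this depth.

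HBEGF, the heparin-binding EGF-like factor, was at 114, 83.7, 115 and 101 CPM with CPT and at 26.9, 37.5, 23.7 and 33.6 CPM with DMSO. It had the highest CPM of the 6 ligands in U2OS CPT, and with DMSO it stood beside TGFA. The log2 fold change was 1.93 (standard error 0.14), or 3.81-fold. TGFA, the gene of transforming growth factor alpha, was at 37.7, 45.3, 55.4 and 43.4 CPM with CPT and at 28.7, 28.9, 24.3 and 30.8 CPM with DMSO. The groups did not overlap, and the log2 fold change of 0.85 (standard error 0.14) fell short of 1. NRG1, the gene of neuregulin 1, was at 68.3, 62.3, 62.7 and 57.7 CPM with CPT and at 9.88, 9.98, 8.50 and 7.69 CPM with DMSO. All CPT libraries stood above all DMSO libraries, and the log2 fold change was 2.98 (standard error 0.15), or 7.88-fold.

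Among the receptors, EGFR was at 43.0, 44.0, 45.0 and 54.3 CPM with CPT and at 21, 24.1, 20.2 and 21.6 CPM with DMSO. With CPT every library was higher than with DMSO, and the log2 fold change was 1.27 (standard error 0.14), or 2.41-fold. ERBB3 went the other way, at 2.06, 4.34, 1.04 and 2.81 CPM with CPT against 11.7, 14.5, 13.5 and 14.9 CPM with DMSO. Its log2 fold change was -2.22 (standard error 0.28), or 4.65-fold lower. ERBB2, the partner receptor without a known ligand, was at 56.5 to 82.7 CPM with CPT and at 52.8 to 102 CPM with DMSO. Its log2 fold change was 0.04 (standard error 0.16) with TMM factors and -0.12 on library size alone. ADAM17, the protease that sheds AREG, HBEGF and TGFA, was at 106 to 116 CPM with CPT and at 115 to 152 CPM with DMSO, and its log2 fold change was -0.09 (standard error 0.11).

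In all, 4 members were higher and 1 lower past an absolute log2 fold change of 1 and an edgeR adjusted p (quasi-likelihood test, Benjamini-Hochberg) under 0.05, cutoffs that 13.5% of the 19080 genes tested passed (7.97% higher and 5.5% lower). Values did not overlap for 6 members, as for 31.3% of all genes tested. The members' median log2 fold change was 0.52, against 0.008 for all genes. Since this comparison was used to choose the genes, nothing is read from these counts. TMM, the scaling factors used in the fits, moved every log2 fold change by 0.17 relative to library size alone; of the genes past the cutoffs 59.2% were higher with TMM and 44.9% on library size alone. All 9 U2OS markers were also higher with CPT, and their summed level was 9120 to 10800 CPM against 5120 to 6440 CPM with DMSO. Their part in the members' differences was not tested.

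The other genes of the pathway were placed in lists by their roles. These lists were drawn up with earlier results of these data known, so their counts and p-values are given as a description. In U2OS CPT, 7.97% of all genes tested were higher and 5.5% lower past both cutoffs. Of 6 other ligands and receptors, 4 could be tested in U2OS CPT, and 2 fell. These were the neuregulin genes NRG2, at 1.88 ± 0.540 CPM with CPT and 5.47 ± 0.957 CPM with DMSO (SD, n = 4 each; log2 fold change -1.35, edgeR adjusted p = 0.00184), and NRG3, which had at most 1.26 CPM on average. NRG3 had enough counts to be tested only in the DMSO libraries, so it could only be counted as lower. EGF, the founding ligand of the family, was at means of 4.38 and 4.15 CPM. Of 10 genes tested for shedding and trafficking of the ligands, 2 rose and 0 fell past both cutoffs, and their median log2 fold change was 0.52. RHBDF2, the gene of iRhom2, which carries ADAM17 to the cell surface, rose from 30.4 ± 5.56 to 63.6 ± 6.5 CPM (SD, n = 4), with a log2 fold change of 1.23 (edgeR adjusted p = 2.5e-08). ADAM12, another metalloprotease, rose by 1.1 on the log2 scale (edgeR adjusted p = 3.82e-08). None of 18 relay genes, such as GRB2, SOS1 and PIK3CA, passed both cutoffs, with 0 higher and 0 lower by edgeR and 5 at an adjusted p under 0.05 alone. The largest of these differences was 0.63 on the log2 scale.

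Among the listed inhibitors of the receptors and of the pathway, more fell than rose past both cutoffs. The list holds SPRY1 and DUSP5, while SPRY2, SPRY4, DUSP4 and DUSP6 were placed with the ERK output genes. Of 9 tested, 4 fell and 1 rose, where 5.5% of all genes tested fell and 7.97% rose. Their median log2 fold change was -0.54. LRIG3, of a family of membrane proteins of which LRIG1 promotes receptor turnover, fell from 45.9 ± 12.8 to 5.85 ± 1.05 CPM (SD, n = 4), with a log2 fold change of -2.78 (edgeR adjusted p = 6.18e-13). LRIG1 fell by 1.52 on the log2 scale (edgeR adjusted p = 9.43e-06) and SOCS3, a cytokine signalling inhibitor, by 2.49 (edgeR adjusted p = 6.87e-10). SPRY1 had 0 counts in each CPT library and 2 to 6 with DMSO, near the limit of counting. It entered the test through the DMSO libraries alone, so it could only be counted as lower. DUSP5, a phosphatase of nuclear ERK, rose by 1.19 (edgeR adjusted p = 0.000857). Transcripts that ERK signalling is known to raise did not move together. Of 9 tested, 1 rose and 3 fell, with a median log2 fold change of 0.04. PHLDA1 fell from 163 ± 20.7 to 16.2 ± 4.68 CPM (SD, n = 4), with a log2 fold change of -3.14 (edgeR adjusted p = 1.31e-16), and SPRY2 and EPHA4 fell by 1.26 and 1.16. EPHA2, an ephrin receptor, rose by 1.59 (edgeR adjusted p = 1.66e-07). DUSP6, ETV4 and ETV5 had log2 fold changes of 0.07, -0.09 and 0.04.

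The libraries labelled HEK293T CPT had the U2OS profile and were set against the libraries labelled HEK293T DMSO of the same profile. AREG, TGFA, NRG1 and ERBB3 were higher in those labelled CPT, and HBEGF and EGFR overlapped. ERBB3 was thus above its controls here and below them in U2OS CPT. The difference between the comparisons was not tested, and no direction for CPT is drawn from these labels. CDKN1A was at 77.9 to 162 CPM in the libraries labelled CPT and 88.7 to 125 CPM in those labelled DMSO.

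**Figure D2:**
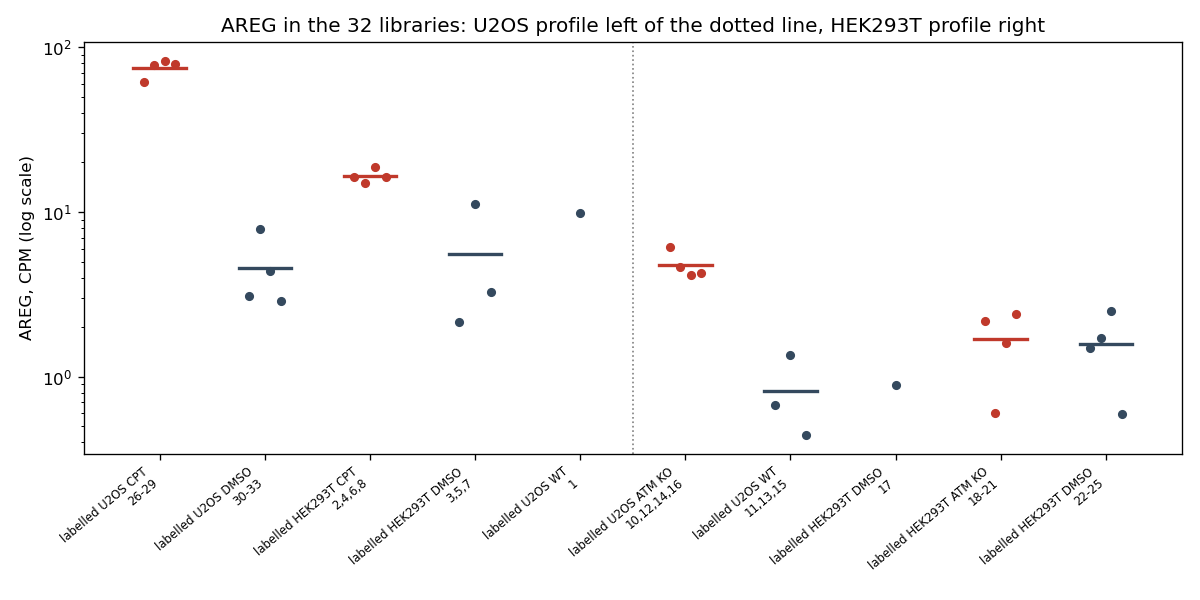
AREG CPM on a log scale in the 32 libraries, placed by label and library number; points are libraries, bars are means, and red marks the libraries labelled CPT or ATM KO. U2OS CPT lies at 61.5 to 82.4 CPM, the libraries labelled HEK293T CPT at 14.9 to 18.7 CPM, and every library with a HEK293T profile, right of the dotted line, at or below 6.12 CPM.

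AREG was at 16.2, 14.9, 18.7 and 16.3 CPM in the libraries labelled HEK293T CPT and at 2.16, 11.2 and 3.27 CPM in libraries 3, 5 and 7 labelled HEK293T DMSO. Library 5 stood well above the other controls, yet below every library labelled CPT. The log2 fold change was 1.49 (standard error 0.32, edgeR adjusted p = 0.00118). It was 2.57 without library 5 and lay between 1.14 and 1.54 without each of the others, past both cutoffs every time.

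TGFA was at 43.0, 48.6, 32.8 and 38.0 CPM against 16.4, 13.1 and 18 CPM. Its log2 fold change was 1.33 (standard error 0.20, edgeR adjusted p = 1.5e-05). NRG1 was at 60.8, 30.3, 37.8 and 48.6 CPM against 10.4, 21.4 and 15.5 CPM. The groups of both ligands did not overlap, and the log2 fold change of NRG1 was 1.42 (standard error 0.22, edgeR adjusted p = 1.75e-05). HBEGF was at 34.1, 45.7, 65.8 and 55.9 CPM against 51.1, 75.3 and 66.8 CPM. These ranges overlapped (log2 fold change -0.32, 95% interval -0.67 to 0.03, edgeR adjusted p = 0.292). EREG had 1 to 10 counts in each of the 7 libraries and BTC 1 to 11, and neither passed the test.

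ERBB3 was at 23.5, 27.9, 26.2 and 28.2 CPM in the libraries labelled CPT and at 9.52, 10.1 and 6 CPM in the controls. The groups did not overlap, and the log2 fold change was 1.64 (standard error 0.23, edgeR adjusted p = 3.32e-06). ERBB2 was at 89.2 to 118 CPM against 51.9, 87.3 and 57.0 CPM, a log2 fold change of 0.63 (standard error 0.18, edgeR adjusted p = 0.0175) that fell short of the cutoff on size. EGFR was at 16.2 to 39.9 CPM against 32.9 to 37.2 CPM (edgeR adjusted p = 0.341), and ADAM17 at 82.8 to 96.5 CPM against 86.5 to 125 CPM (edgeR adjusted p = 0.465).

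Of the 10 members, 4 were higher and 0 lower past both cutoffs, which 4.46% of 18515 genes passed (2.32% higher and 2.14% lower). Values of 5 did not overlap, as for 17.5% of genes. The members' median log2 fold change was 0.72, against 0.03 for all genes. With library 1, labelled U2OS WT but of the same profile, added to the controls, the count was again 4, and AREG had a log2 fold change of 1.33 (edgeR adjusted p = 0.000481). With library 17, labelled HEK293T DMSO but of the HEK293T profile, added in its place, 0 members and 39 genes passed, and the adjusted p of AREG was 0.251.

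**Figure D3:**
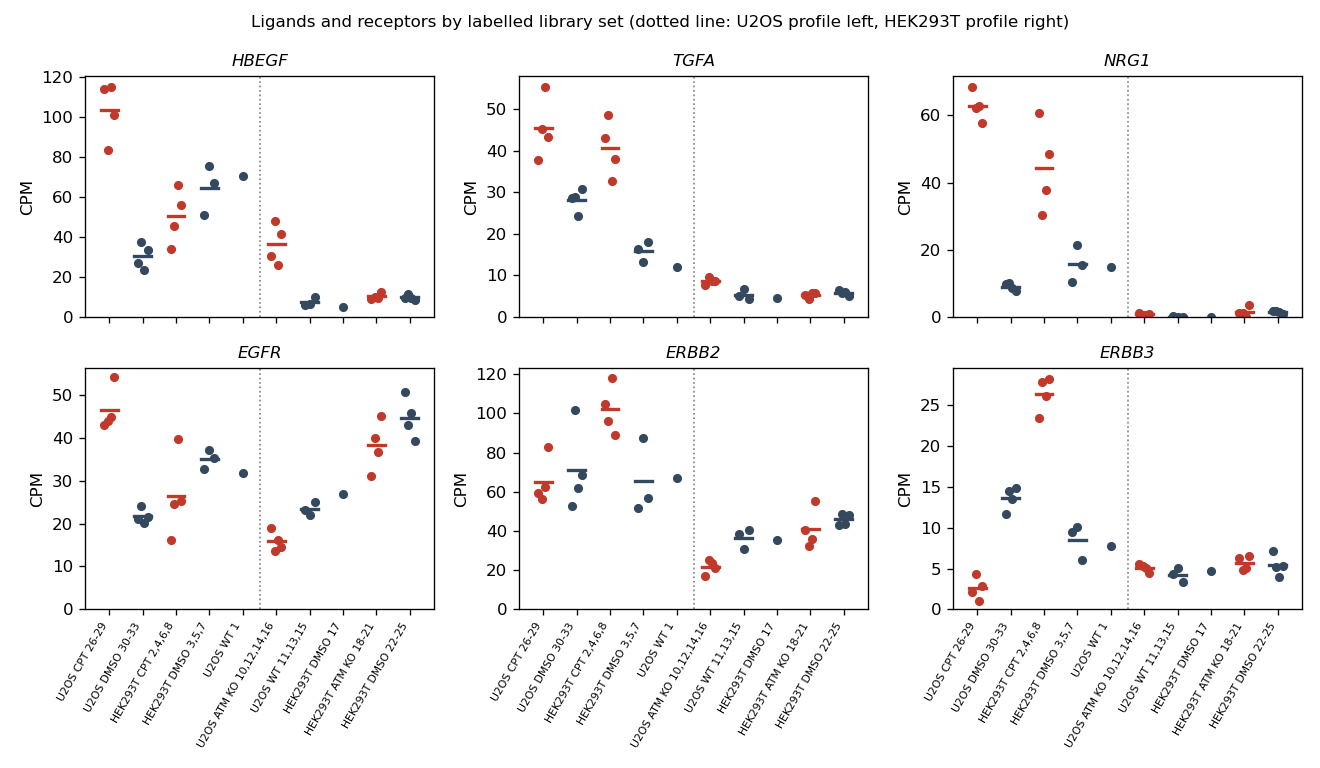
CPM of HBEGF, TGFA, NRG1, EGFR, ERBB2 and ERBB3 by label and library number; points are libraries, bars are means, axes start at 0, red marks libraries labelled CPT or ATM KO, and the dotted line parts the U2OS profile (left) from the HEK293T profile (right). ERBB3 is lowest in U2OS CPT (1.04 to 4.34 CPM) and highest in the libraries labelled HEK293T CPT (23.5 to 28.2 CPM), while NRG1 is at most 3.43 CPM in the HEK293T profile.

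In the same libraries, 2 of 5 other ligands and receptors were higher. Of all genes tested, 2.32% were higher and 2.14% lower past both cutoffs. ERBB4, a receptor of neuregulins, stood at 2.83 ± 0.311 CPM (SD, n = 4) against 0.364 ± 0.315 CPM (SD, n = 3), on 4 to 15 and 0 to 2 counts per library (log2 fold change 2.62, edgeR adjusted p = 0.00718). NRG4 was at means of 2.38 and 0.508 CPM (edgeR adjusted p = 0.0231). Of 10 genes for shedding, ADAM15 was higher and ADAM19 lower. Of 8 genes listed as feedback inhibitors LRIG3 alone passed, at a log2 fold change of -2.08 (edgeR adjusted p = 1.71e-09). ERK output genes were lower for 4 of 9 and higher for 0. DUSP6, the phosphatase that turns off cytoplasmic ERK, was at 0.552 ± 0.435 CPM (SD, n = 4) against 4.94 ± 1.21 CPM (SD, n = 3), with a log2 fold change of -2.75 (edgeR adjusted p = 0.000154). EPHA4 was lower by a log2 fold change of -2.46, PHLDA1 by -1.46 and SPRY2 by -1.44. Of the 18 relay genes 0 passed both cutoffs by edgeR, with 1 at an adjusted p under 0.05 alone.

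Between the libraries labelled U2OS ATM KO and U2OS WT that share a HEK293T profile, AREG and HBEGF were higher in those labelled ATM KO, by more than 4-fold each. NRG1 also passed, on very few counts. EGFR, ERBB2 and ADAM17 were lower by less than 2-fold. DUSP6, ETV4, ETV5 and further ERK output genes were higher alongside, as were CDKN1A (121 to 228 CPM against 19.5 to 56.9 CPM) and MDM2 (409 to 494 CPM against 154 to 262 CPM).

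AREG was at 6.12, 4.63, 4.16 and 4.24 CPM in the libraries labelled ATM KO and at 0.674, 1.35 and 0.444 CPM in libraries 11, 13 and 15 labelled WT. These values rest on 13 to 27 and 2 to 8 counts, and the groups did not overlap. The log2 fold change was 2.39 (standard error 0.41, edgeR adjusted p = 5.01e-05), or 5.25-fold, and 2.98 without library 13. HBEGF was at 30.3, 48.1, 25.9 and 41.7 CPM against 6.06, 6.60 and 10.0 CPM. The groups did not overlap here either, and the log2 fold change was 2.26 (standard error 0.22, edgeR adjusted p = 1.33e-08), or 4.79-fold.

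TGFA was at 7.65 to 9.57 CPM against 4.22 to 6.77 CPM. Its log2 fold change of 0.63 (standard error 0.25) fell short of 1, and its edgeR adjusted p was 0.0501. NRG1 had 4, 2, 2 and 5 counts in the libraries labelled ATM KO and 1, 0 and 0 in those labelled WT. The ratio of counts scaled to library totals was 13.3 (exact 95% interval 2 to 565, counting error only), with an adjusted p of 0.0149 by edgeR and 0.0601 by DESeq2. Leaving out library 13 gave an edgeR adjusted p of 0.0582. EREG and BTC had too few counts to be tested, at most 1 and 2 per library.

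EGFR was at 19, 13.6, 16.3 and 14.5 CPM against 23.2, 22 and 25.1 CPM (log2 fold change -0.61, standard error 0.18, edgeR adjusted p = 0.00936). ERBB2 was at 16.8, 25, 23.4 and 21.1 CPM against 38.4, 30.6 and 40.7 CPM (log2 fold change -0.80, standard error 0.16, edgeR adjusted p = 0.000429). Neither EGFR nor ERBB2 overlapped between the groups, and neither passed the cutoff on size. ADAM17 was at 57.2 to 74.4 CPM against 78.7 to 89.9 CPM (log2 fold change -0.38, edgeR adjusted p = 0.0342), and ERBB3 overlapped, at 4.40 to 5.51 CPM against 3.33 to 5.08 CPM (edgeR adjusted p = 0.685).

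Of the 8 members tested, 3 were higher and 0 lower past both cutoffs, which 13.3% of 19271 genes passed (8.67% higher and 4.63% lower). NRG1, 1 of the 3, had enough counts to be tested only in the libraries labelled ATM KO. It could only come out higher, so nothing is read from its part in this count. Without the cutoff on size 6 members passed, 3 in each direction, and 32.1% of genes did. Values of 7 did not overlap, as for 35.6% of genes, and the median log2 fold change was 0.40 against 0.03 for all genes. With library 17, of the same profile, added to the controls, 3 members passed again. The log2 fold changes were 2.40 for AREG and 2.38 for HBEGF. TGFA then had an edgeR adjusted p of 0.0199, which leaves the cutoff on size aside. Library 1 is also labelled U2OS WT but has the U2OS profile, and with it among the controls 0 members passed and AREG had a log2 fold change of 0.91 (edgeR adjusted p = 0.583). Reads on no gene made up 15.8 to 18.5% in the libraries labelled ATM KO and 9.39 to 11% in those labelled WT. The summed U2OS markers were at 220 to 311 CPM against 101 to 106 CPM, with 5 of 8 tested markers higher past both cutoffs, while S100A6 and TGFBI, abundant in U2OS cells, were at 0.64 CPM or less in all 7 libraries. The part of either in the members' differences was not tested.

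**Figure D4:**
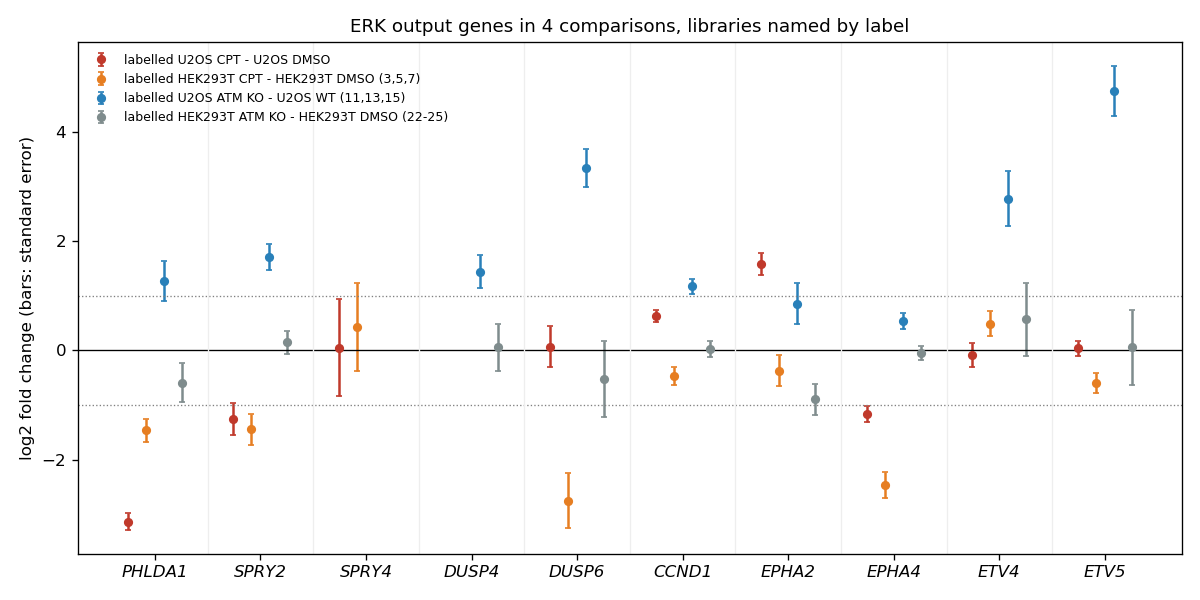
Log2 fold change of 10 ERK output genes in 4 comparisons, with libraries named by label; bars are standard errors, dotted lines mark 1 and -1, and genes without a point were not tested or had 0 counts in a whole group. In the libraries labelled U2OS ATM KO 7 of 10 genes were higher past both cutoffs, as were 8.67% of all genes tested. In those labelled HEK293T CPT 4 of 9 were lower, as were 2.14% of all genes tested. In U2OS CPT 1 was higher and 3 were lower, against 7.97% and 5.5% of all genes tested.

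In the libraries labelled U2OS ATM KO, ERK output genes were higher past both cutoffs for 7 of 10 and lower for 0. Of all genes tested, 8.67% were higher and 4.63% lower past them. The median log2 fold change of the list was 1.58, against 0.03 for all genes. As the lists were drawn up with earlier results known, these counts are a description. ETV5, a transcription factor induced by ERK, was at 7.44 ± 1.45 CPM (SD, n = 4) against 0.243 ± 0.0869 CPM (SD, n = 3), with a log2 fold change of 4.76 (standard error 0.46, edgeR adjusted p = 6.61e-09), where the controls had 1 or 2 counts each. DUSP6 was at 9.27 ± 1.69 CPM (SD, n = 4) against 0.877 ± 0.326 CPM (SD, n = 3), with a log2 fold change of 3.35 (edgeR adjusted p = 3.5e-08). ETV4 and SPRY2 were higher by log2 fold changes of 2.78 and 1.71. Among 9 genes listed as feedback inhibitors, DUSP5 (log2 fold change 3.46, edgeR adjusted p = 1.48e-08), SOCS3 and SPRED2 were higher and LRIG3 was lower. LRIG3 overlapped between the groups, at 6.29 to 10.8 CPM against 10.7 to 32.7 CPM. SOCS3 rested on 7 to 12 counts per library against 5. RHBDF2 was the only 1 of 9 shedding genes past both cutoffs, and was lower, at 10.8 ± 1.35 CPM (SD, n = 4) against 22.4 ± 3.64 CPM (SD, n = 3), with a log2 fold change of -1.09 (edgeR adjusted p = 9.04e-05). Past both cutoffs were 0 of 18 relay genes and 0 of 4 other ligands and receptors by edgeR, with 4 and 0 at an adjusted p under 0.05 alone.

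In the libraries labelled HEK293T ATM KO no member passed the test against HEK293T DMSO libraries 22 to 25. AREG was at 2.17, 0.603, 1.60 and 2.40 CPM against 1.5, 1.71, 2.51 and 0.592 CPM, with 2 to 8 and 2 to 10 counts. The groups covered the same range, and the log2 fold change was 0.12 (95% interval -0.83 to 1.08, edgeR adjusted p = 0.995). HBEGF, at 8.96 to 12.7 CPM against 8.59 to 11.7 CPM, had a narrower interval of -0.25 to 0.52. EGFR was at 31.2 to 45.2 CPM against 39.4 to 50.8 CPM (log2 fold change -0.17, interval -0.41 to 0.07, edgeR adjusted p = 0.935). ERBB2, ADAM17, TGFA, NRG1 and ERBB3 also overlapped, with log2 fold changes from -0.12 to 0.14. EREG and BTC had at most 1 count per library and were not tested. Of 8 members tested 0 passed both cutoffs, and 0% of 18413 genes did so by edgeR and 0 by DESeq2, with 1017 genes at an unadjusted p under 0.05. Values of 0 members were separate, against 3.07% of genes. Each of the pathway lists likewise had 0 genes past the cutoffs.

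**Figure D5:**
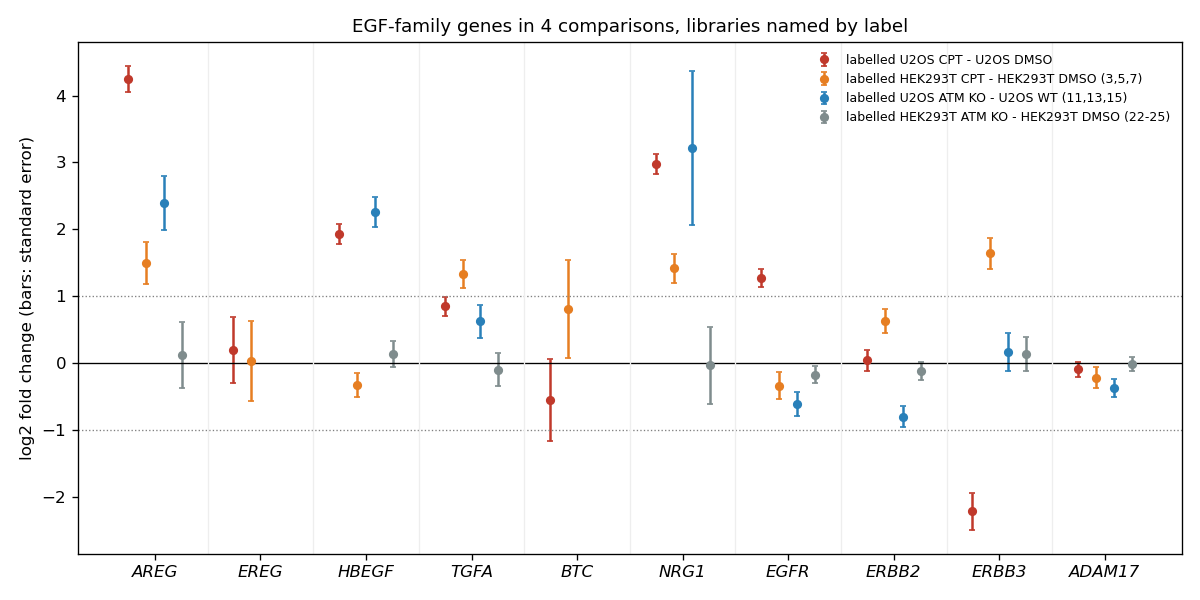
Log2 fold change of the 10 genes in 4 comparisons, with libraries named by label; bars are standard errors and dotted lines mark 1 and -1, and EREG and BTC have no point where they were not tested. AREG lies above 1 in all but the libraries labelled HEK293T ATM KO (0.12), HBEGF lies above 1 in U2OS CPT and in the libraries labelled U2OS ATM KO, and ERBB3 lies at -2.22 in U2OS CPT and at 1.64 in the libraries labelled HEK293T CPT.

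The cell lines themselves were compared through DMSO libraries whose labels and profiles match, U2OS DMSO 30 to 33 and HEK293T DMSO 22 to 25. These libraries are also the controls of U2OS CPT and of the libraries labelled HEK293T ATM KO. All 6 member ligands were higher in U2OS cells, as were ERBB2 and ERBB3, and EGFR was lower. Of 5 other ligands and receptors tested, 2 were higher past both cutoffs (EGF and NRG3) and 2 lower, namely NRG4, at means of 0.219 against 2.09 CPM, and ERBB4, at 0.326 against 3.63 CPM (log2 fold change -3.26, edgeR adjusted p = 1.12e-05). AREG was at 4.57 ± 2.33 against 1.58 ± 0.787 CPM (SD, n = 4 each), with a log2 fold change of 1.66 (edgeR adjusted p = 0.000491). HBEGF was at 30.4 ± 6.27 against 9.79 ± 1.35 CPM (SD, n = 4 each), with a log2 fold change of 1.86 (edgeR adjusted p = 4.69e-11). TGFA had a log2 fold change of 2.49 and NRG1 of 2.79. EREG had 20 counts over the U2OS libraries and 2 over the HEK293T libraries, a scaled ratio of 10.4 (exact 95% interval 2.52 to 91.4, counting error only), and BTC had 2 to 7 counts per U2OS library and 0 in each HEK293T library.

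EGFR was at 21.7 ± 1.67 CPM in U2OS and 44.8 ± 4.82 CPM in HEK293T DMSO libraries (SD, n = 4 each; log2 fold change -0.82, edgeR adjusted p = 4.12e-06). On library size alone its log2 fold change was -1.05, past the cutoff, since TMM moved this comparison by 0.23. ERBB3 was at 13.6 ± 1.40 against 5.41 ± 1.31 CPM (SD, n = 4 each), with a log2 fold change of 1.57 (edgeR adjusted p = 1.38e-07), ERBB2 at 71.4 ± 21.6 against 45.9 ± 2.88 CPM (log2 fold change 0.86), and ADAM17 at 135 ± 17.4 against 110 ± 7.90 CPM (log2 fold change 0.51). Past both cutoffs 7 members were higher and 0 lower, where 39.9% of 19739 genes passed (21.8% higher and 18.1% lower). EREG and BTC, which are among the 7, had enough counts to be tested only in the U2OS libraries. They could only come out higher, so nothing is read from their part in this count. Values of 9 were separate, as for 55.5% of genes. Of all genes past the cutoffs, 54.7% were higher in U2OS with TMM and 45.0% on library size alone.

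Ordered by mean level, AREG was at 75.2 ± 9.35 CPM in U2OS CPT and at 16.6 ± 1.6 CPM in the libraries labelled HEK293T CPT (SD, n = 4 each). Then came the libraries labelled HEK293T DMSO with a U2OS profile (5.55 ± 4.94 CPM, SD, n = 3), those labelled U2OS ATM KO (4.79 ± 0.913 CPM, SD, n = 4) and U2OS DMSO (4.57 ± 2.33 CPM, SD, n = 4), whose ranges overlapped. Lowest were the libraries labelled HEK293T ATM KO (1.69 ± 0.801 CPM, SD, n = 4), HEK293T DMSO 22 to 25 (1.58 ± 0.787 CPM, SD, n = 4) and those labelled U2OS WT with a HEK293T profile (0.824 ± 0.473 CPM, SD, n = 3), which again overlapped with each other. Library 1 was at 9.88 CPM and library 17 at 0.887 CPM.

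Across the 32 libraries and 12987 genes with a mean log2 CPM over 1, the pattern most like that of AREG was that of SYTL2 (Pearson's r = 0.96 on log2 CPM), followed by ITIH5 (0.945), GALNT5 (0.944), SDC4 (0.933), the gene of syndecan-4, and CLDN1 (0.928), the gene of claudin-1. Among the members, HBEGF had r = 0.876, NRG1 0.862, TGFA 0.861, ERBB2 0.596, ADAM17 0.442, EGFR 0.367 and ERBB3 0.117. EREG and BTC lay below that level. The 32 points share 2 cell line profiles and the treatment groups, so these values describe the libraries and are no measure of a relation within a group.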

How the data were processed

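QuantSeq 3′ libraries of HEK293T and U2OS RNA were counted by the authors, who used Lexogen's UMI pipeline and deposited raw counts of 32 libraries. The genome build is not given in the sources used here. The table held 60107 genes, 5 summary rows (10.9 to 40.6% of counts per library) and 92 spike-in rows, and the latter kinds were not used. GENCODE 29 gave a symbol for 56104 genes.

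Groups came from the labels. No pair of libraries agreed within sampling noise (lowest chi-square per degree of freedom 1.77). A gene was tested where 2 or more libraries of a comparison had over 1 count, by the quasi-likelihood test of edgeR 4.0.16 (R 4.3.3) with TMM factors and Benjamini-Hochberg adjustment. It passed with an adjusted p under 0.05 and a log2 fold change above 1 or below -1. Alternatives were edgeR's likelihood ratio test (used by the authors), DESeq2 1.42.0, RLE factors, other filters, no fold cutoff, other controls and each library left out. Library size alone was added after seeing the data. The procedure was tested on simulated data.

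The members and lists were chosen with earlier results of these data known. Named were all members, ATM, CDKN1A and MDM2, at most 4 genes per list and comparison by size of change among those past the cutoffs, and the 5 genes most correlated with AREG. Further list genes, such as EGF, ADAM15, NRG4 and those that did not pass, were named after their values were seen. The precision of low genes is set by depth, and count intervals and floors cover counting error only.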

Additional observations from a re-analysis of the deposited data

Results flagged for a closer look

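In each labelled group of 4 to 8 libraries, the highest and lowest library were checked for a gap to the others that is wide against the group's range. Of 76 groups of values of the 10 members and ATM, 10 had such a library. The rate of about 1 in 20 that chance gives is no yardstick here. The groups labelled U2OS WT and HEK293T DMSO mix the U2OS and HEK293T profiles, and a single count in an otherwise empty group is always flagged. In the group labelled U2OS WT, library 1, which has the U2OS profile, stood above the other 3 for AREG (9.88 CPM, others 0.444 to 1.35), HBEGF (70.6 CPM, others 6.06 to 10.0), NRG1 (14.8 CPM, others 0 to 0.168) and BTC (1.41 CPM, others 0). In the group labelled HEK293T DMSO, library 5, also of the U2OS profile, stood above the other 7 for AREG (11.2 CPM), ERBB2 (87.3 CPM) and BTC (1.37 CPM). The remaining 3 rest on a single count each, namely EREG in library 21 (0.343 CPM) and BTC in library 19 (0.301 CPM), both labelled HEK293T ATM KO, and EREG in library 16 labelled U2OS ATM KO (0.157 CPM).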

How the results depend on the processing

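No paired analysis was made, because the labels do not record which libraries belong to the same repeat. The cause of the changes below was not tested, apart from filters, cutoffs and left-out libraries, which change the genes or libraries that enter. Library 1 puts the U2OS profile among the controls of the label U2OS ATM KO. Library 17 puts the HEK293T profile among those of the label HEK293T CPT. These settings mix the profiles and so do not check the results within 1 profile. Genes past both cutoffs numbered 2569 in U2OS CPT (1652 with filterByExpr, 6093 without a fold cutoff), 2562 in the libraries labelled U2OS ATM KO (1615, 6178, and 631 with library 1 among the controls), 826 in those labelled HEK293T CPT (1934 without a fold cutoff, 39 with library 17) and 7872 between the cell lines (5090 and 12259). For the label HEK293T ATM KO the count of 0 became 2 with the likelihood ratio test, 2 without a filter, and 1 both without a fold cutoff and on library size alone. Members past the cutoffs went from 3 to 6 without a fold cutoff and to 0 with library 1 (label U2OS ATM KO), from 4 to 0 with library 17 (label HEK293T CPT), and from 7 to 4 with filterByExpr (cell lines).

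Leaving out each library gave 2414 to 2547 genes for U2OS CPT, 0 to 14 for the label HEK293T ATM KO (14 without library 21), 2196 to 2494 for U2OS ATM KO, 673 to 971 for HEK293T CPT and 7514 to 7732 between the lines, with 5, 0, 2 to 3, 4 and 7 to 8 members. NRG1 lost its call in the label U2OS ATM KO without library 13, and ERBB2 gained one between the lines without library 30 (log2 fold change 1.01).

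Directions turned as follows, mostly for members near 0. In U2OS CPT, ERBB2 was at -0.12 on library size alone and at -0.11 to 0.23 with libraries left out, and EREG at -0.013 to 0.35. In the label HEK293T ATM KO the ranges were -0.12 to 0.45 for AREG, -0.79 to 0.35 for NRG1 and -0.057 to 0.028 for ADAM17, and with all 8 DMSO libraries, 3 of which have the U2OS profile, AREG was at -1, HBEGF at -1.74 and ERBB3 at -0.31. With library 1, NRG1, at 3.22 without it, was at -1.86 and ERBB3 at -0.071 in the label U2OS ATM KO. In the label HEK293T CPT, EREG ranged from -0.34 to 0.48, and HBEGF was at 0.045 with library 17. EREG and BTC rest on at most 11 counts per library, which limits what could be seen.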
